A study of Mus musculus with 10 samples.

Results

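Dam-ZFP266 binding was examined at the genes for other zinc finger proteins, namely all mouse genes whose name is Zfp followed by a number only. A gene was counted when at least 1 bp of an exon of a curated RefSeq transcript (GRCm38) lay under a DamID-seq peak of ZFP266. *Zfp266* itself was set apart because the fusion plasmid carries its sequence. There were 41 such genes among 367 Zfp genes (11.2%), and the background over all 26180 genes with a curated transcript was 1618 genes, or 6.18%. Over protein-coding genes alone the background was 6.45%. Among the 207 genes of other names with a zinc finger exon, which is an exon with 3 or more matches to the C2H2 pattern, it was 11.1% (23 genes), much the same as in the Zfp genes. The genes were chosen by their overlap with a peak, so the overlap, and the signal and q-values of the same peaks, are given as a description and were not tested.

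Most genes of this name encode proteins with an array of C2H2 zinc fingers, each finger being a short fold that holds a zinc ion and reads a few bases of DNA. Many also encode a KRAB box near the N-terminus, which recruits TRIM28 and, through it, SETDB1 and HP1 to form repressive chromatin. Such genes arose by tandem duplication, often lie in clusters, and as a rule encode the whole finger array in their last exon. The 3′ ends of zinc finger genes are known in several cell types to carry trimethylated H3K9 and to bind TRIM28, neither of which was measured in these samples.

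In DamID-seq, a protein fused to the Dam methyltransferase of bacteria leaves methylated adenines at GATC sequences near the places it occupies, and the fragments between methylated GATC sites are amplified and sequenced. Wild-type mouse embryonic fibroblasts (MEFs) of the 129 strain were nucleofected either with the plasmid PGK-mO-Dam, which gives Dam alone (5 samples), or with PGK-mO-Dam-Zfp266, which gives the fusion (5 samples). Cells were sorted after 48 h, and 32 ng of genomic DNA per sample was used. The fusion was thus expressed from a plasmid with the *Pgk1* promoter on top of the cells' own *Zfp266*. All 10 samples enter a single list of 15119 peaks, which together cover 1.15% of the genome. Each peak has 1 signal value, so the list gives neither a level per sample, nor a spread between replicates, nor the read depth.

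*Zfp266* (chr9:20495068-20521419, minus strand) carried 5 peaks, which covered coding exons from exon 4 to exon 9 of 9. Their signal values were 8.66, 8.42, 8.33, 6.85 and 5.24, against a median of 0.898 over all peaks. The authors' methods attribute this signal to the plasmid. The signal values of the 41 other genes all lay far below it, between 0.542 and 1.49 over 50 peaks. Their median of 0.889 was close to the median of all peaks.

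Judged by their sequence, 37 of the 41 genes encoded 3 or more matches to the C2H2 pattern and 27 had a KRAB box, as against 333 and 227 of the 367 Zfp genes. The share with an exon under a peak was similar for Zfp genes with a KRAB box (27 of 227, 11.9%) and without one (14 of 140). The other 4 genes lacked such an array. *Zfp365*, known for roles in neurons and in the response to DNA damage, and *Zfp957* had no match to the pattern, *Zfp367* had 2, and *Zfp572* has only a noncoding transcript in RefSeq.

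By kind of exon, the one most often under a peak was the exon that encodes the zinc fingers. It was covered at least in part in 23 of the 41 genes (56.1%), and the finger array itself was touched in 22 of them. Bases of 5′ UTR, which lie in several kinds of exon, were under a peak in 24 of the 41 genes (58.5%). Over all Zfp genes with a zinc finger exon, 23 of 310 (7.42%) had it under a peak, and the background in the 207 genes of other names that have such an exon was 7.73%, or 16 genes. Among these 16 were *Rest* and *Prdm9*, which were named after their values were seen, and some have related names such as *Zfp119b* and *Zfp955a*. The difference between these shares was not tested. A KRAB exon was under a peak in 6 genes (2.64% of the 227), always together with the zinc finger exon, and no member had its 3′ UTR under a peak in any exon but the zinc finger exon.

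Counted in bases, 6.06% of the finger arrays of the 367 Zfp genes lay under peaks, compared with 1.95% of their other coding sequence outside the KRAB box, 2.38% of the KRAB boxes and 1.85% of their introns. In 20635 protein-coding genes of other names, the share was 4.96% for finger arrays and only 0.650% for other coding sequence, while introns stood at 1.51%. In both sets the array had the highest share of any part, and the KRAB boxes of the other genes followed at 4.73%. The 3′ UTRs were at 3.13% in Zfp genes and 0.694% in the other genes, of which 207 of 20635 have a zinc finger exon. For 5′ UTRs the shares were 3.92% and 1.60%.

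**Figure D1:**
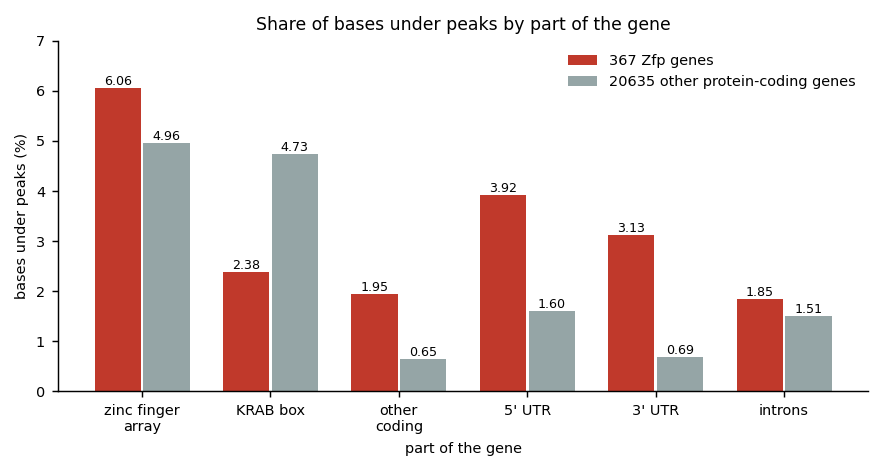
Bars show the share of bases under peaks, in percent, for each part of the gene, in 367 Zfp genes other than *Zfp266* (red) and 20635 other protein-coding genes (grey). Zinc finger arrays are highest in both sets (6.06% and 4.96%), and other coding sequence in genes of other names is lowest (0.650%).

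Zinc finger exons are long, so they were compared with other exons by length class. Among exons of 2000 bp to less than 4000 bp, 14 of 179 zinc finger exons of Zfp genes (7.82%) met a peak, compared with 73 of 4382 other coding exons of genes not named Zfp (1.67%). For exons of 1000 bp to less than 2000 bp the shares were 5.97% and 1.19%, and for exons of 4000 bp or more 8.47% and 2.45%. The order was the same in each of the 3 length classes, while none of the 14 shorter zinc finger exons met a peak. Zinc finger exons of genes with other names stood at 8.89%, 9.28% and 3.85% from the shortest to the longest of the 3 classes, so they were above the Zfp genes in all but the longest. For the other exons of Zfp genes the shares were 1.59% below 250 bp and 5.20% at 250 bp to less than 1000 bp. Other coding exons of genes not named Zfp stood at 0.798% and 1.14% in these classes, a set without noncoding exons. In the longer classes the other exons of Zfp genes stood at 1.82% at 1000 bp to less than 2000 bp. They stood at 0 of 31 at 2000 bp to less than 4000 bp and 0 of 12 at 4000 bp or more. The part of exon length in these shares was not tested.

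The longest fragment between GATC sites differed between the zinc finger exons under peaks and the others. The median number of sites was 5 in both, with medians of 1.59 and 1.91 sites per kb, respectively. All 23 exons under a peak were met by a DpnII fragment of at least 1000 bp, and so were 78.0% of the 296 zinc finger exons of Zfp genes that were not. The longest fragment had a median of 2168 bp (range 1158 to 3372) in the former and 1334.5 bp (range 429 to 4689) in the latter, whereas exon length was alike (medians of 2742 and 2654 bp). The part that fragment length plays in the choice of these exons was not tested.

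The peaks over the 23 zinc finger exons were drawn along each gene from the first base of the array. Of the 23 arrays, 13 were covered whole, 7 by at least 50%, 2 by less and 1 not at all. Of the 27 peaks over these exons, 11 had their midpoint in the array, 8 in the 3′ UTR, 4 in other coding sequence, 1 in a KRAB box and 3 in an intron.

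**Figure D2:**
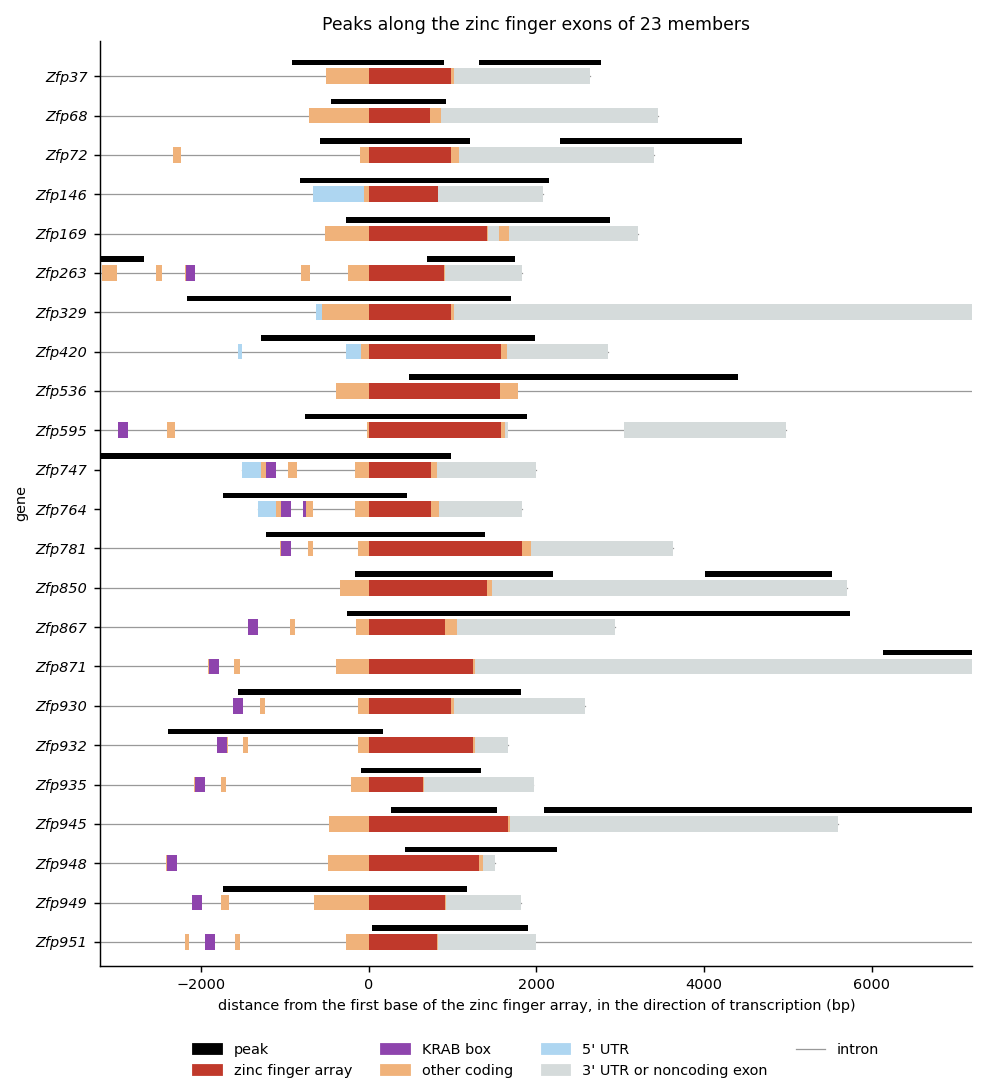
Maps of the 23 genes whose zinc finger exon lies under a peak, aligned at the first base of the finger array (0 bp) and read in the direction of transcription. Black bars are peaks, red boxes finger arrays, purple boxes KRAB boxes, and 13 of the 23 arrays lie wholly under black bars.

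*Zfp951* had the highest signal among these genes. Its peak at chr5:104813267-104815129 was 1 DpnII fragment with a signal value of 1.41 and a −log10 q of 1.04, close to the lowest of the whole list (1.00), and it covered 95.4% of an array of 10 C2H2 matches and much of the 3′ UTR behind it. *Zfp949* followed with 1.38 over a fragment of 2913 bp (chr9:88567535-88570447) that took in the whole array. Both code for KRAB zinc finger proteins.

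*Zfp37*, a gene known for its expression in the testis, had 3 peaks, more than all but 1 of the other members. The peak with a value of 1.37 (chr4:62189413-62190860) lay in the 3′ UTR part of exon 5, the peak with 1.20 (chr4:62191284-62193099) covered 90.9% of the array in the same exon, and the peak with 0.915 (chr4:62203719-62205340) spanned exons 3 and 4, with the KRAB box. In *Zfp945* too there were 3 peaks, with signal values of 1.12 over the array, 0.890 over the 3′ UTR and 0.542 at the transcript start. The last of these was the lowest value of all 50.

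*Zfp263*, a member with both a SCAN domain and a KRAB box in its protein, had a peak of 1.17 over the end of the array and the 3′ UTR and a second of 1.08 over exon 2. The first covered 22.1% of the array. *Zfp72* (1.01 and 0.915) and *Zfp850* (0.884 and 0.889) each had 1 peak over the array and another farther into the 3′ UTR of the same exon, with a stretch in between that was not in the list.

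In *Zfp146*, which encodes a protein made almost only of zinc fingers, a peak of 2967 bp with a value of 0.910 covered exon 2 of 2 from end to end. The array was also covered whole in *Zfp420* (0.909), whose product is known to restrain p53, and in *Zfp68* (0.896), *Zfp329* (1.00), *Zfp935* (0.974), *Zfp930* (0.891), *Zfp595* (0.832) and *Zfp169* (0.838). In *Zfp595* no GATC lies within the 1680 bp of the zinc finger exon, so that a single fragment of 2640 bp held it all. In *Zfp948* (0.809) 67.0% of the array was covered.

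*Zfp871* differed from the rest of this group. Its peak (chr17:32767791-32769487, value 0.857) lay in the 3′ UTR only, within an exon of 10513 bp, and none of its 15 C2H2 matches was under it. In *Zfp536*, known to hold back neuronal differentiation, the peak (0.666) covered 69.6% of the array in exon 4 of 6, which holds 7 of the 10 C2H2 matches. *Zfp536* and the genes *Zfp747*, *Zfp781*, *Zfp867*, *Zfp13*, *Zfp46*, *Zfp462*, *Zfp472* and *Zfp367* were outside the rule for naming genes and are named because their counts needed it, after their values were seen.

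The 6 genes with a KRAB exon under a peak were *Zfp37*, *Zfp747*, *Zfp764*, *Zfp781*, *Zfp930* and *Zfp932*. In all but *Zfp37* a single peak ran from the KRAB exon into the zinc finger exon. Among the peaks that covered a KRAB exon that of *Zfp932* was the highest, with a value of 1.31 over a fragment of 2564 bp (chr5:110006362-110008925), but only 14.0% of its array lay under it. *Zfp747* (0.715) and *Zfp764* (0.838) are neighbours on chromosome 7, and their peaks reached from before the transcript start through exons 1 and 2 into the array in exon 3.

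A transcript start lay under a peak in 17 of the 41 genes. That is 4.63% of the 367 Zfp genes, and the background over protein-coding genes of other names was 1.72%. The share was not computed for the 207 genes of other names with a zinc finger exon. Whether it is particular to Zfp genes was therefore not tested. In 13 of the 17 the zinc finger exon had no peak, and the overlap was short, with a median of 101 bp against 1863 bp in the zinc finger exon group. The exceptions were *Zfp169*, *Zfp747*, *Zfp764* and *Zfp945*, which had both.

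**Figure D3:**
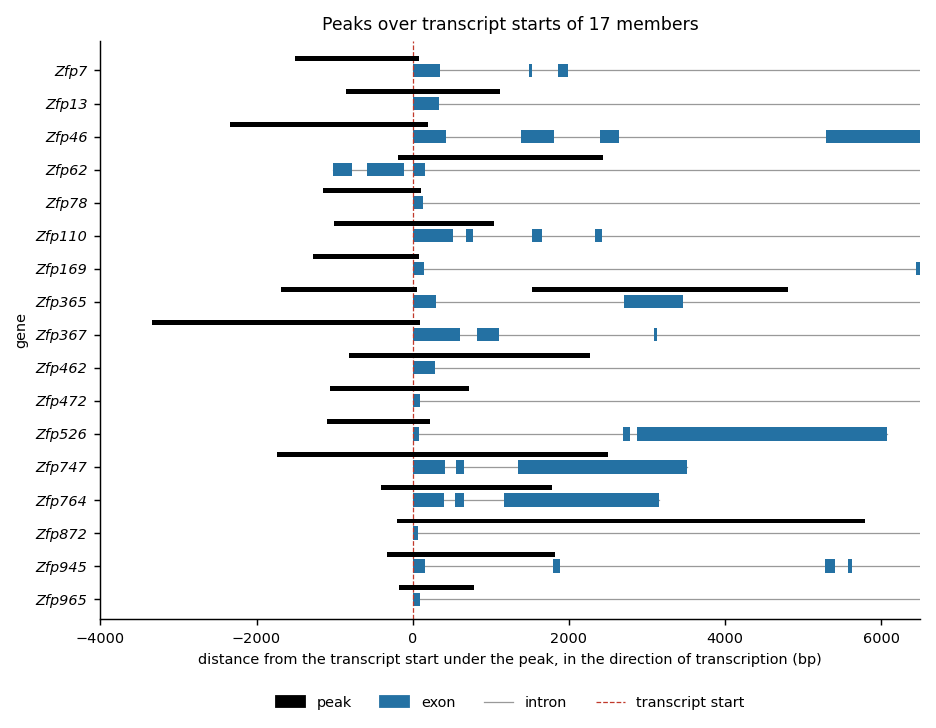
Maps of the 17 genes with a transcript start under a peak, aligned at that start (0 bp, dashed line) and read in the direction of transcription. Black bars are peaks and blue boxes exons, and in 8 of the genes, such as *Zfp46* and *Zfp367*, the middle of the peak lies before the gene.

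The highest signal of all members came from this group. *Zfp110*, whose product NRIF binds the neurotrophin receptor p75, had a peak of 2054 bp with a signal value of 1.49 and a −log10 q of 3.00 (chr7:12833752-12835805). Its midpoint was 17 bp behind the transcript start, and exons 1 and 2 were covered whole, with 556 bp of 5′ UTR and 45 bp of coding sequence.

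In the other 12 of these 13 genes the value at the start was lower and ran from 0.581 in *Zfp367* to 0.972 in *Zfp62*, with 0.932 in *Zfp78*, 0.839 in *Zfp965*, 0.786 in *Zfp365* and 0.757 in *Zfp526*. *Zfp462*, known for its part in heterochromatin and cell identity, had 0.639 over a peak of 3090 bp. *Zfp365* had a further peak of 0.643 over exon 2, most of it coding sequence. The median of the highest value per gene was 0.713 in the 13 genes with a peak over the start and none over the zinc finger exon. It was 0.909 in the 23 with a peak over the zinc finger exon, and the ranges overlapped. Genes with more than 1 peak enter with their highest, which in *Zfp169* was the peak at the start. Taken per peak, the median was 0.896 for the 27 peaks over zinc finger exons and 0.786 for the 23 other member peaks.

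In 5 genes the peak met neither a zinc finger exon nor a transcript start. *Zfp800* had a value of 1.05 over exon 2, *Zfp572* 1.00 over its noncoding exon 2, *Zfp691* 0.983 over exon 2 and *Zfp957* 0.849 over exon 2. These exons hold no coding sequence. In *Zfp644*, whose product works with the H3K9 methyltransferases G9a and GLP, the peak (0.738) held exon 7 of 12, an exon of 61 bp.

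**Figure D4:**
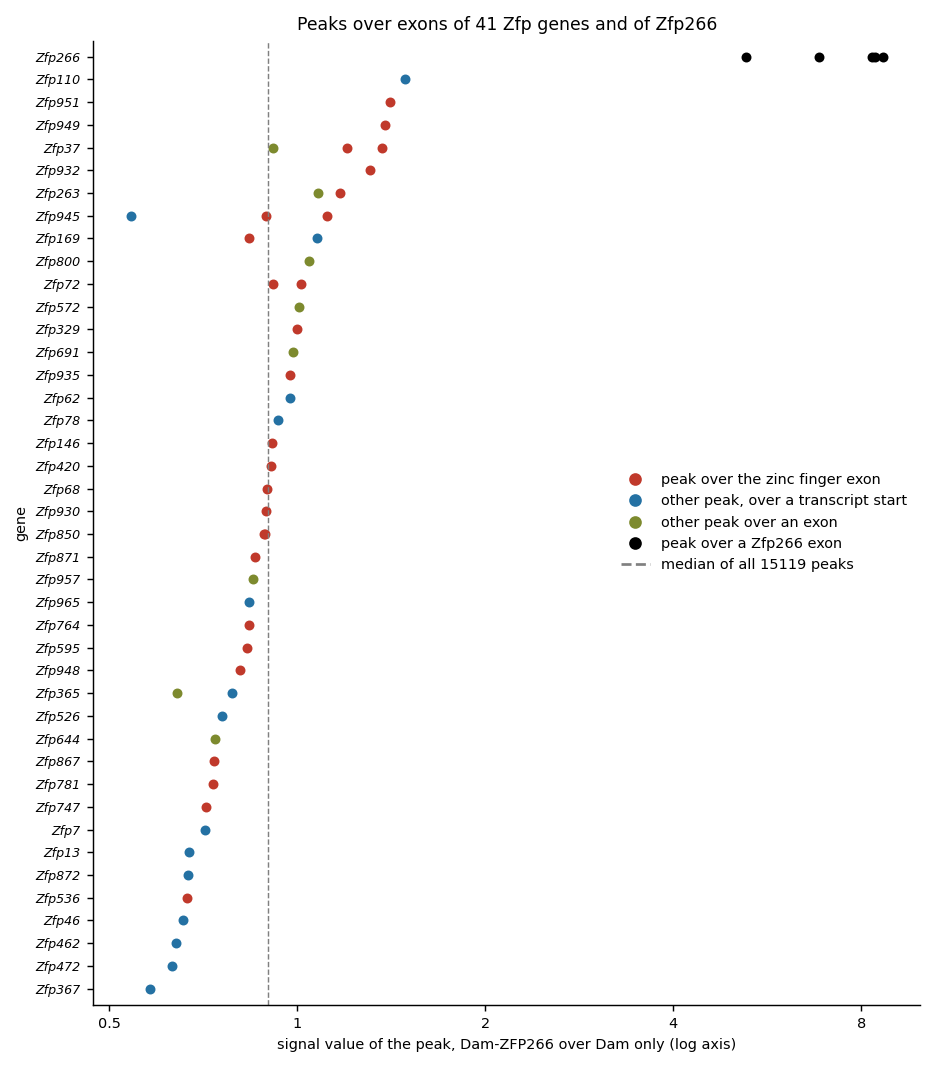
Each point is 1 peak over an exon of the gene named at the left, placed by its signal value, with genes ordered by their highest value. The scale of the signal value is not stated, so it is not read as a plain ratio of fusion to Dam. The log axis only sets the spacing of the points. The 5 peaks of *Zfp266* (black, 5.24 to 8.66) stand apart from the 50 peaks of the other genes (0.542 to 1.49), which lie on both sides of the median of all peaks (dashed line, 0.898).

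Since the fusion plasmid carries the *Zfp266* coding sequence, the genes were compared with it. The longest stretch of identical bases was 29 bp among the 41 genes and 38 bp among all 367, so no gene shared a run as long as a 40-base read. The best alignment of at least 100 bp had a median identity of 67.1% in the 29 members that had one, with a range from 64.8% to 73.3%. In the 179 aligned Zfp genes with no exon under a peak the median was 66.8%, and it ranged up to 81.0%.

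By the bit score of the alignment, the genes most like *Zfp266* were *Zfp560* (385), *Zfp26* (301), *Zfp426* (274), *Zfp113* (250) and *Zfp81* (241), and no exon of the 5 genes lay under a peak. Members were found further down the order, with 6 among the 20 highest scores (30%). They made up 29 of the 208 Zfp genes that could be aligned, and 11.2% of all Zfp genes. The longest identical stretch had a median of 18 bp in members with a peak over the zinc finger exon, 15 bp in the other members and 17 bp in all members. It was 15.5 bp in Zfp genes with no exon under a peak, some of which have no zinc finger exon. These differences were not tested, and neither was the part of sequence similarity in the overlap with peaks. With the 5 peaks over *Zfp266* left out, the nearest peak was 12135 bp from an exon of *Zfp560*, 61069 bp from *Zfp26*, 101300 bp from *Zfp426*, 3312 bp from *Zfp113* and 37821 bp from *Zfp81*. The member with the highest score, *Zfp37*, was in position 8 of the order with 214. Within the 21 members of the zinc finger exon group that could be aligned, the score and the highest signal value had a Spearman rho of 0.30. It is a description across genes, which share ancestry, are not independent and were chosen by these same peaks. The highest value is not always that of a peak over the aligned bases. In *Zfp169*, *Zfp871* and *Zfp932* no aligned base lay under a peak, and in *Zfp781* 11.9% did.

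**Figure D5:**
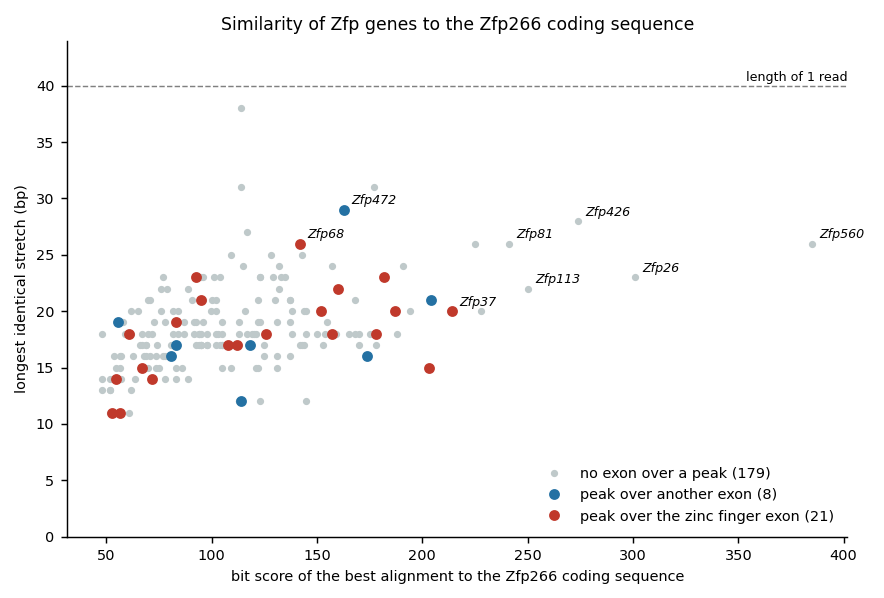
Each point is a Zfp gene with an alignment to the *Zfp266* coding sequence, placed by the bit score of the alignment and by the longest stretch of bases identical to it, in bp. Members (red and blue) lie among the genes with no exon under a peak (grey), they take none of the 5 highest scores and 6 of the 20 highest, and all points are below the read length of 40 bp (dashed line).

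The sequences show what the genes share with *Zfp266*. The longest runs identical to its coding sequence are given for genes with and without an exon under a peak, 5′ to 3′ on the coding strand in GRCm38, and capitals mark the codons of the cysteines that hold the zinc ion. In *Zfp68* (chr5:138606834-138606859, minus strand) and *Zfp37* (chr4:62191831-62191850, minus strand) the run was under a peak. In *Zfp472* (chr17:32978462-32978490, plus strand), which has a peak only at its start, and in *Zfp560* (chr9:20348617-20348642, minus strand), which has no exon under a peak, it was not.
Zfp68: tatgaaTGTaaggaaTGTgggaaagc
Zfp37: tatgaaTGTaaggaaTGTgg
Zfp472: ccctatataTGTaagcagTGTgggaaagc
Zfp560: aaTGTaaggaaTGTgggaaagccttt

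In other genes the longest run fell on the conserved linker that joins neighbouring fingers, whose codons are in capitals. *Zfp867* (chr11:59463803-59463824, minus strand) had it under a peak, and *Zfp113* (chr5:138144964-138144985, minus strand) and *Zfp426* (chr9:20470489-20470516, minus strand) have no exon under one. The run was the same 22 bases in *Zfp867* and *Zfp113*.
Zfp867: ccacACTGGAGAGAAGCCCtat
Zfp113: ccacACTGGAGAGAAGCCCtat
Zfp426: agaactcacACAGGAGAGAAGCCTtttg

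Some members have close copies, and a read from a repeated stretch cannot be placed with certainty. Of the 50 peaks, 16 held no 40-base word that occurs anywhere else in the genome, and the median share of such words was 2.30%. In 9 peaks the share was above 20%. It was 100% in the peak of *Zfp965* and 96.9% in that of *Zfp781*, so the position of these peaks is uncertain. The other 7 were those of *Zfp932* (51.8%), *Zfp747* (43.5%), *Zfp872* (35.9%), *Zfp935* (35.2%), *Zfp951* (29.7%), *Zfp764* (26.8%) and *Zfp7* (20.8%). Without these 9 peaks 32 genes remained, and 17 of them had the zinc finger exon under a peak. The 5 peaks of *Zfp266* held no repeated word. Among zinc finger exons of Zfp genes the median share was 2.22% in the 23 under a peak and 1.40% in the other 296.

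The members were spread over the genome. They lay on 14 chromosomes, the largest number on chromosome 7, which held 10 of the 41 and 90 of the 367. With a cluster taken as 3 or more Zfp genes no more than 250 kb apart, 184 of the 367 genes lay in 28 clusters. Of these 184 genes 16 (8.70%) were members, compared with 25 of the 183 genes outside clusters (13.7%). The difference was not tested and depends on the definition, in which zinc finger genes of other names do not count. With clusters joined at 500 kb, 23 of the 41 members lay in clusters, and with 100 kb 15 did. The rest of this section uses 250 kb. In 12 of the clusters there was at least 1 member and in none more than 2.

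The pairs of members within a cluster were *Zfp329* and *Zfp110*, *Zfp420* and *Zfp146*, and *Zfp747* and *Zfp764* on chromosome 7, and *Zfp871* and *Zfp472* on chromosome 17. In the first and the last pair, 1 gene had its peak over the zinc finger exon and the other at the transcript start. The cluster of 19 Zfp genes at chr13:67038594-67827000 had 1 member, *Zfp595*, and the cluster of 18 at chr17:21383748-22456689 had 1, *Zfp948*. The cluster that holds *Zfp266* itself (chr9:20345136-20595193, with *Zfp560*, *Zfp26*, *Zfp426* and *Zfp846*) had none.

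B1 SINEs, a family of short interspersed repeats, were found in 12 of the 50 peaks (24.0%), compared with 32.7% of all 15119 peaks. Of the 27 peaks over zinc finger exons 8 held a B1 SINE (29.6%), among them those of *Zfp37*, *Zfp932*, *Zfp949* and *Zfp169*, and of the 23 other peaks 4 did (17.4%). With a stricter definition, at least 100 bp at 85% identity, the numbers were 7 of the 50 (14.0%), 4 of the 27 (14.8%) and 3 of the 23 (13.0%), compared with 23.7% of all peaks. The AP-1 motif (TGACTCA or TGAGTCA, which are each other's reverse complement) was in 17 of the 50 (34.0%), compared with 44.2% of all peaks. It was in 6 of 27 peaks over zinc finger exons (22.2%) and 11 of 23 others (47.8%), and this difference was not tested. A motif match is a description of the sequence and not a binding site.

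The peaks also differed in base composition and length. Peaks over zinc finger exons had a median GC content of 39.2% and a median length of 2364 bp, the other member peaks 47.4% and 1785 bp, and all peaks 43.5% and 1777 bp. Of the 50 peaks, 29 (58.0%) were a single DpnII fragment, much as in the whole list (55.7%). In 3 genes the peak was shared with an exon of another gene, namely *Jmjd4* beside *Zfp867*, *A830005F24Rik* beside *Zfp169* and *Cyp4f41-ps* beside *Zfp472*.

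The related families are small. Of 11 Zkscan genes 2 had an exon under a peak (18.2%), *Zkscan4* (signal value 1.00) and *Zkscan5* (0.820), and of 11 Zscan genes 1 did (9.09%), *Zscan10* (0.796), and these are among the 23 of 207 genes of other names. In *Zscan10*, a factor of embryonic stem cells, it was the zinc finger exon. None of the 35 Zbtb genes, whose proteins pair a BTB domain with zinc fingers, had an exon under a peak. Of 18 genes for TRIM28 and other partners of KRAB proteins 1 did, namely the chromatin remodeller *Smarcad1* (0.906, with 106 bp of exon), which is 5.56% and close to the background of 6.18%.

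Only some of the genes met stricter rules. With the peaks of the higher signal values alone there were 18 genes (background 2.71%), with peaks whose FDR was below 0.05 and whose signal value exceeded 1 there were 8 (background 1.40%), and with the midpoint of a peak inside an exon 24 (background 1.27%). The rule used here asks for 1 bp, and the members nearest to it were *Zfp644* with 61 bp, *Zfp872* with 66 bp, *Zfp526* with 80 bp, *Zfp7* with 81 bp and *Zfp800* with 83 bp. Just outside it were *Zfp783*, whose exon was 31 bp from a peak, *Zfp217* (211 bp), *Zfp777* (226 bp), *Zfp647* (332 bp) and *Zfp27* (377 bp). Another 30 Zfp genes (8.17%) had peaks in introns only, and the background over all genes was 9.35%.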

How the data were processed

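DamID-seq was done on 5 Dam and 5 Dam-Zfp266 samples of MEFs. Per the methods and the submitters' processing notes, the authors ran FastQC and cutadapt, aligned 40-base paired reads with BWA to GRCm38 (GRCm38.p6), removed mitochondrial and blacklisted reads, assigned reads to DpnII fragments (Rsubread), and used Daim to call peaks over all samples. Versions of FastQC, cutadapt, BWA, Rsubread and Daim are not given in the sources used here. The deposited list gives a score, a signal value whose scale is not stated, and a −log10 q-value per peak, and its p-values were not used. The methods give an FDR of 0.05 and a log2 fold change of 1 as example limits, and 3986 of the 15119 deposited peaks had a q-value under 0.05 and a signal value above 1. Starts were read as 0-based.

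Exons came from 45756 curated RefSeq transcripts, merged per gene. C2H2 matches were 2 cysteines and 2 histidines at the usual spacing in translated coding sequence. KRAB boxes were found with a profile (pyhmmer 0.12.3, e-value 0.01) made from 188 Zfp proteins. Alignments used blastn 2.17.0, and B1 SINEs a 134 bp consensus extended from the most frequent 20-base word of chromosome 19 (at least 80 bp at 70% identity). Computation used Python 3.11.15, numpy 2.4.6, pandas 2.3.3 and matplotlib 3.10.9, and the overlap steps were tested on simulated data. No result was tested, since the peak list chose the genes. The members and lists were chosen with earlier results of these data known. The rule for naming genes took the 30 members with the highest signal value, *Zfp266*, and the genes just inside and outside the overlap rule. It took the 5 closest relatives of *Zfp266* and genes of the fixed lists (Zkscan, Zscan, Zbtb, 18 KRAB partners) with an exon under a peak. Other genes, such as *Zfp119b*, *Zfp955a*, *Zfp846* and those that share a peak with a member, were named outside this rule. Read coverage tracks were not used here.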

Additional observations from a re-analysis of the deposited data

How the results depend on the processing

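The samples are pooled in the 1 list used here, so no sample could be left out, and nothing here has a replicate error. No paired analysis was possible because the peak list used here holds no value per sample. Of 38 alternatives, 29 left the count or median within 1.5 times the value reported and 9 did not. Some of the 29 had little room to move, such as the median identity to *Zfp266* (67.1% or 67.2%). The tally therefore lists the settings tried and is not a test. The limit also takes in the rise from 16 to 23 members in clusters when clusters were joined at 500 kb. With the 3986 peaks whose FDR was below 0.05 and whose signal value exceeded 1, 8 Zfp genes had an exon under a peak (background 1.40% of all genes), 6 of them over the zinc finger exon and 2 in clusters, and 0 of the 4 genes from the lists of related families and KRAB partners. With the 7560 peaks of the higher signal values, the numbers were 18 (background 2.71%), 11 and 6. With the midpoint of a peak inside an exon, 24 genes were left (background 1.27%), and 19 of them had it in the zinc finger exon. A B1 SINE of at least 100 bp at 85% identity was found in 7 member peaks. With predicted transcripts there were 47 genes, which included all 41, and with GENCODE vM21 43, which shared 39. The removal of 9 peaks with repeated words, and the stricter peaks for the lists, were chosen after the data had been seen.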

Other observations

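The Zfp genes with no exon under a peak, 326 of 367 (88.8%), included several known for silencing or for pluripotency, named here for those roles and not by the rule. They were *Zfp57*, which maintains imprints, *Zfp42* (*Rex1*), a marker of pluripotent cells, *Zfp809* and *Zfp568*, which silence retroviral elements and a placental transcript of *Igf2*, respectively, and *Zfp445*, also an imprinting factor. The nearest peak was 665 bp from an exon of *Zfp809*, 3191 bp from *Zfp568*, 18403 bp from *Zfp57*, 73319 bp from *Zfp445* and 1290548 bp from *Zfp42*. The members *Zfp462* and *Zfp644* also have roles in repressive chromatin. Over all 326 Zfp genes without an exon under a peak, the median distance was 54382.5 bp.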
